A study of Mus musculus with 18 samples.

Results

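Ferritin and iron handling transcripts were followed here through primary mouse brain cell cultures and through the small extracellular vesicles (sEVs), lipid-bounded particles shed by those cells. The set holds 9 genes of the 54307 in the table, chosen by name: the ferritin chains Ftl1 and Fth1, the uptake genes Tfrc and Trf, the regulators Ireb2, Aco1 and Fbxl5, the ferritin receptor Ncoa4, and Hmox1. Messenger RNA of 6 groups was sequenced, with 3 replicates each and 18 libraries in all: sEVs of astrocytes and astrocytes, sEVs of microglia and microglia, sEVs of neurons and neurons. The study asked whether the mRNA placed in sEVs depends on the cell type. All cultures were untreated as far as the labels go, RNA was taken from sEVs and from a portion of the cells that released them, and cDNA was primed at poly(A) tails and amplified with 15 PCR cycles. Strain, age and the method of sEV isolation are not given in the sources used here, nor whether replicates came from separate cultures, so p-values measure only the spread between these libraries.

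Ferritin is a hollow protein shell that stores iron in a form that does little harm. Its heavy chain (Fth1) oxidizes incoming iron and its light chain (Ftl1) helps the mineral core to form. Cells take up iron as transferrin (Trf) through the transferrin receptor (Tfrc), and the iron regulatory proteins IRP1 (Aco1) and IRP2 (Ireb2) bind a hairpin, the iron responsive element, in the mRNAs of these genes when iron is scarce: in a 5′ UTR this blocks translation, and in the 3′ UTR of Tfrc it protects the mRNA. In the brain, microglia and oligodendrocytes are known for their iron stores, and oligodendrocytes and choroid plexus for making transferrin.

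The hairpins are shown because they set the ferritin chains and Tfrc apart from the other members at the level of the mRNA. Capitals mark the 6-base loop, and positions are counted along the principal transcript of each gene in GENCODE vM21.
Ftl1, 5′ UTR, bases 78 to 107: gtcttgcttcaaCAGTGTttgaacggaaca
Fth1, 5′ UTR, bases 87 to 116: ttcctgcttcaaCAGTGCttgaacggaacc
Tfrc, 3′ UTR, bases 3315 to 3344: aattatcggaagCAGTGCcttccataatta
Tfrc, 3′ UTR, bases 3694 to 3723: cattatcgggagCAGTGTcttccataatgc
Tfrc, 3′ UTR, bases 3759 to 3788: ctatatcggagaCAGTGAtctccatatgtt
Tfrc, 3′ UTR, bases 3806 to 3835: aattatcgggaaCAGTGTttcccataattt
The search asked, in the direction of the mRNA, for a C, any 5 bases, the loop CAGTGN, and 5 bases that pair with the first 5, G-T pairs allowed. It was met in the 5′ UTR of 22 of 19735 genes (0.111%) and in the 3′ UTR of 102 of 19908 genes (0.512%). Trf, Ireb2, Aco1, Fbxl5, Ncoa4 and Hmox1 had no such stretch in the transcripts searched.

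A library's normalized counts added up to between 36947428 and 69276566, and the reads per library were estimated at 30658292 to 77758624. Genes at a value of 10 or more numbered 7840 to 15951 in sEV libraries and 13494 to 18131 in cell libraries, fewest in microglia sEVs. The astrocyte, microglia and neuron marker lists were each highest in the cells of their own name. Neuron cultures also held astrocyte markers, at 0.31 to 0.35% of a neuron library against 0.541 to 0.641% for neuron markers. In neuron sEVs the astrocyte list (0.208 to 0.301%) lay above the neuron list (0.151 to 0.205%). The part of this mixture in the member values was not tested. Microglia totals (65071835 to 69276566) lay above those of astrocytes and neurons (36947428 to 44059144), so pairs with microglia depend on the scaling. Such pairs of cells whose sign turned over the alternatives tried are named below. All 9 members reached 10 in at least 3 libraries. Their differences between sEVs and cells were known when the set was proposed, so that contrast is given as values with no test, on the log2(normalized count + 1) scale with the SE of a limma fit over all 18 libraries.

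Ftl1 (ENSMUSG00000050708) was the most abundant gene of every sEV library, and it stood higher in sEVs than in cells in all 3 cell types. Astrocyte sEVs held 4991032, 11547426 and 5743832 normalized counts of Ftl1, against 105832, 105662 and 151798.5 in astrocytes. Microglia sEVs held 2488596.5, 2138478 and 2738143 of Ftl1, against 920416.5, 777348 and 888131 in microglia. In neuron sEVs Ftl1 came to 5575237, 8197079 and 6664127, against 144289.5, 171012 and 185264 in neurons. No sEV library overlapped the cell libraries of its type, and astrocyte sEV replicate 2 was the highest of all. The sEV-minus-cell difference of Ftl1 was 5.86 ± 0.25 in astrocytes, 1.51 ± 0.25 in microglia and 5.34 ± 0.25 in neurons on the log2 scale, where the median of the 19612 genes tested was -0.60, -0.79 and -0.47. Quantile normalization, which raises that median by 0.54 to 1.05, gave Ftl1 4.14, 2.31 and 3.27. As an order by abundance within a library, Ftl1 was the first gene in each sEV library, and it ranked 27 to 31 in astrocytes, 3 to 5 in microglia and 9 to 15 in neurons.

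Fth1 (ENSMUSG00000024661) followed the light chain at a smaller size. The 3 astrocyte sEV libraries had 234867, 325448 and 224036 normalized counts of Fth1, against 48029.8, 43634.4 and 71636.3 in astrocytes. Microglia sEVs had 997513, 842090 and 913276 of Fth1, against 531855, 470489 and 472611 in microglia. For neuron sEVs the Fth1 values were 407459.5, 352617 and 354569, against 55153.2, 64396.3 and 58572.2 in neurons. Again no sEV library overlapped the cells of its type, and here microglia sEVs, not astrocyte or neuron sEVs, had the highest level. The difference of Fth1 was 2.28 ± 0.16 in astrocytes, 0.90 ± 0.16 in microglia and 2.65 ± 0.16 in neurons (log2), and in microglia 1.52 after quantile normalization. Together the ferritin chains took 12.8 to 22.7% of an astrocyte sEV library against 0.404 to 0.507% of an astrocyte library. The same share was 5.51 to 6.67% in microglia sEVs against 1.8 to 2.23% in microglia, and 11.3 to 15.8% in neuron sEVs against 0.478 to 0.573% in neurons. Groups without overlap in all 3 cell types, with sEVs higher, were found for 3.34% of all genes tested, and Ftl1 and Fth1 were among them; since this contrast chose them, nothing is read from that.

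**Figure D1:**
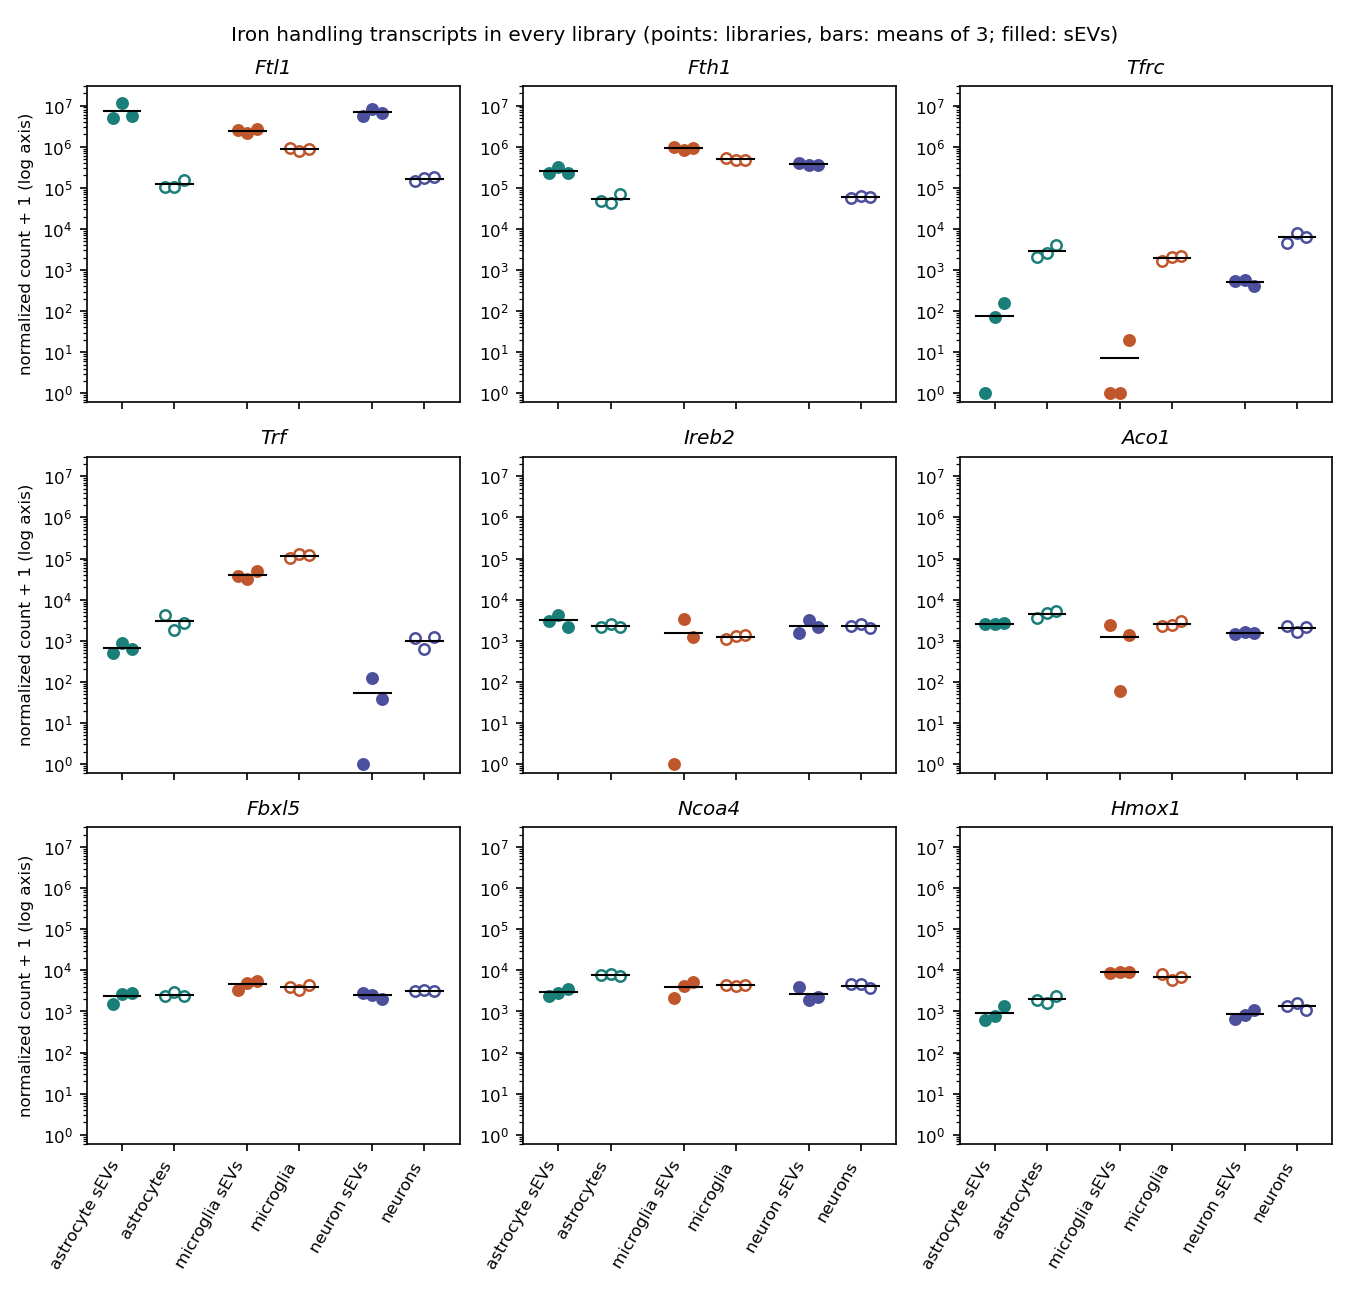
Normalized count plus 1 (log axis) of each of the 9 genes in each of the 18 libraries. Points are libraries, filled for sEVs and open for cells, and bars are the means of 3. Ftl1 and Fth1 lie higher in sEVs than in cells of every type, Tfrc and Trf lower, and single microglia sEV libraries fall away for Ireb2 (0) and Aco1 (60.5).

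The balance of the chains differed between sEVs and cells as well. The Ftl1 to Fth1 ratio of normalized counts, which a library's scaling cannot touch, was 21.3, 35.5 and 25.6 in astrocyte sEVs, against 2.20, 2.42 and 2.12 in astrocytes. It was 2.49, 2.54 and 3 in microglia sEVs, against 1.73, 1.65 and 1.88 in microglia, and 13.7, 23.2 and 18.8 in neuron sEVs, against 2.62, 2.66 and 3.16 in neurons. Microglia sEVs thus lay above microglia but below the highest cell library, while astrocyte and neuron sEVs lay above every cell library. Per kilobase of transcript (Ftl1 968 bases, Fth1 929 bases) the ratio changed little, at 20.4 to 34.1 in astrocyte sEVs and 2.03 to 2.32 in astrocytes. Between cell types, the mean log2 ratio in sEVs was 4.75 ± 0.37 in astrocyte sEVs and 1.42 ± 0.15 in microglia sEVs (SD, n = 3 each), a difference of 3.33 with p = 0.1 in a two-sided exact permutation test, adjusted p = 0.12 over 6 pairs. Microglia sEVs against neuron sEVs (4.18 ± 0.38) gave -2.77 with the same exact p of 0.1, while astrocyte against neuron sEVs overlapped, with a difference of 0.56 and an exact p of 0.2. In cells the log2 ratio was 1.17 ± 0.10 in astrocytes, 0.81 ± 0.09 in microglia and 1.49 ± 0.15 in neurons, again with an exact p of 0.1 for each of the 3 pairs. With 3 libraries against 3, 0.1 is the smallest p this test can give, so none of these could pass 0.05.

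**Figure D2:**
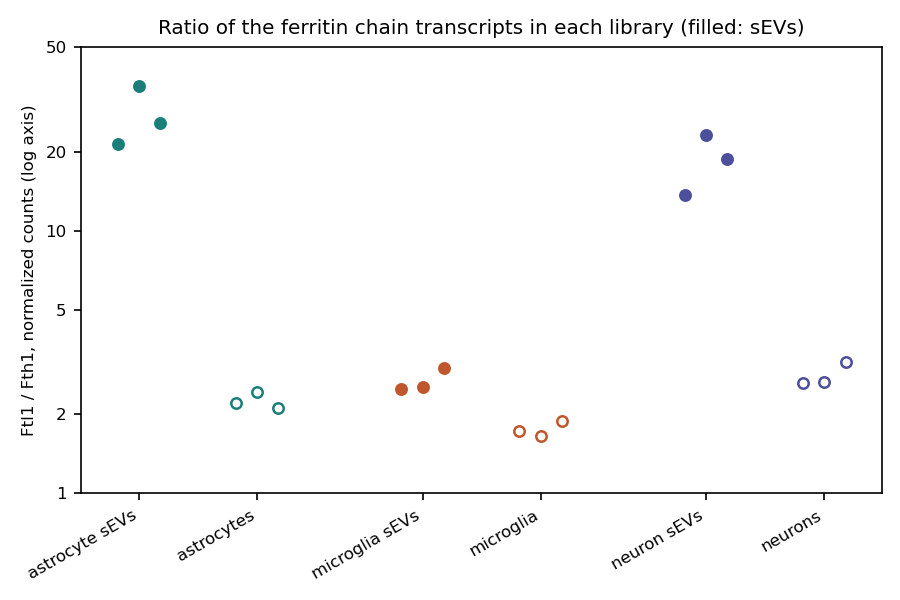
Ratio of Ftl1 to Fth1 normalized counts in each library (log axis), filled points for sEVs and open points for cells. Astrocyte and neuron sEVs lie between 13.7 and 35.5, while microglia sEVs (2.49 to 3) and all cell libraries (1.65 to 3.16) share a low range.

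Near-identical copies were counted too, since a short read cannot always be placed between them. The table holds 7 rows whose transcript matches Ftl1 at 95% identity or more over at least 300 bases, and together they came to 0.596 to 0.934% of the Ftl1 value in any library. The only one with a symbol in the table, Ftl1-ps2 there, matches Ftl1 over 910 bases at 99.6% identity and ran at 0.416 to 0.802% of it. Another of the 7, Gm10252 in GENCODE vM21, lies on the opposite strand of Ftl1 and overlaps 355 bases of its exons; it reached 308.1 to 1880.0 in sEV libraries and 43.4 to 259.5 in cell libraries. Fth1 had no such copy in the table, and the Fthl17 genes, relatives of the heavy chain, were listed at 0 throughout.

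Tfrc (ENSMUSG00000022797), the receptor that brings transferrin into the cell, was nearly missing from glial sEVs. Its normalized counts were 0, 71.5 and 157.5 in astrocyte sEVs, against 2054.3, 2648.5 and 4143.8 in astrocytes. Microglia sEVs had 0, 0 and 18.5 of Tfrc, against 1643.1, 2044.4 and 2142.0 in microglia. Neuron sEVs kept more, with 553.2, 575.4 and 410.0 against 4578.2, 7774.2 and 6347.3 in neurons. Every sEV library lay under every cell library of its type. The difference was -6.97, -9.49 and -3.58 in astrocytes, microglia and neurons (log2, each ± 1.46), and the microglia value rests on the pseudocount, at -11.72 with a pseudocount of 0.1. Tfrc, which carries the 4 hairpins printed above, is a long mRNA of 4890 bases.

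Trf (ENSMUSG00000032554), the iron carrier transferrin, was also lower in every sEV library than in the cells of its type. It stood at 506.8, 894.8 and 624.0 normalized counts in astrocyte sEVs, against 4315.9, 1843.9 and 2748.9 in astrocytes. The highest Trf levels were in the microglia cultures, 37763.1, 30948.9 and 49574.7 in microglia sEVs against 104517, 128400 and 120147 in microglia. In neuron sEVs it was 0, 121.3 and 36.5, against 1138.1, 632.6 and 1264.7 in neurons. The groups did not overlap in any type, and the differences were -2.09 in astrocytes, -1.60 in microglia and -5.87 in neurons (log2, each ± 1.15). The neuron value was -3.84 without neuron sEV replicate 1, where Trf was at 0, and -7.31 without replicate 2. Tfrc and Trf were the members with no overlap and sEVs lower in all 3 types, a pattern found for 8.8% of all genes tested. In GENCODE vM21 Trf shares 2108 bases of exon with the predicted gene Gm20425 on the same strand, whose reads cannot be told from its own. Because oligodendrocytes and choroid plexus make transferrin, their markers were summed. The 8 oligodendrocyte markers came to 0.00452 to 0.00757% of a microglia sEV library and 0.00704 to 0.00813% of a microglia library, with Mog, Mobp, Sox10 and Olig2 at 0 in both groups. In astrocyte sEVs the same list came to 0.212 to 0.468% and in astrocytes to 0.572 to 1.24%, and it was 0.0140 to 0.0203% in neuron sEVs and 0.0554 to 0.215% in neurons. The 5 choroid plexus markers stayed at or under 0.0179% in each library, and that highest value was in microglia. They came to 0.0031 to 0.0179% in microglia, 0.00845 to 0.0171% in astrocytes and 0.000749 to 0.00133% in neurons. The part of oligodendrocytes or choroid plexus in the Trf values of any of the cultures was not tested. In such bulk libraries fewer cells of a type and less RNA per cell cannot be told apart.

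Of the regulators, Ireb2 and Aco1, which encode IRP2 and IRP1, scattered in microglia sEVs more than in astrocyte and neuron sEVs. Ireb2 had 3044.6, 4259.3 and 2178.3 normalized counts in astrocyte sEVs, against 2174.2, 2499.0 and 2172.5 in astrocytes. Microglia sEVs gave 0, 3380.0 and 1217.3 of Ireb2, against 1103.0, 1300.8 and 1357.3 in microglia. Neuron sEVs gave 1578.5, 3150.0 and 2105.6, against 2340.6, 2528.2 and 1984.5 in neurons. The groups overlapped in all 3 types, and the differences were 0.42, -2.96 and -0.06 (log2, each ± 1.96). Without microglia sEV replicate 1, where Ireb2 was at 0, the microglia difference was 0.70. Aco1 had 2502.9, 2525.9 and 2634.8 in astrocyte sEVs, against 3628.4, 4664.2 and 5188.5 in astrocytes. It was 2395.8, 60.5 and 1343.8 in microglia sEVs against 2292.9, 2460.1 and 3063.5 in microglia, and 1428.6, 1650.1 and 1584.4 in neuron sEVs against 2291.5, 1656.7 and 2154.9 in neurons. Aco1 sEV libraries lay under the cell libraries in astrocytes and neurons, at -0.80 and -0.38 on the log2 scale, with an SE of 0.89 that is set by the scatter of microglia sEVs. The microglia difference of -2.15 became -0.53 without microglia sEV replicate 2.

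Fbxl5 is the ubiquitin ligase subunit that removes IRP2 when iron is plentiful. It had 1526.8, 2644.7 and 2812.6 normalized counts in astrocyte sEVs, against 2322.4, 2975.9 and 2325.7 in astrocytes, and 3335.5, 4932.5 and 5380.3 in microglia sEVs, against 3845.4, 3247.8 and 4403.9 in microglia. In neuron sEVs it was 2836.1, 2576.2 and 1978.6, against 3130.1, 3325.1 and 3232.9 in neurons, the one type without overlap. The differences were -0.17, 0.23 and -0.41 (log2, each ± 0.26), the smallest range of the 9 members. Ncoa4 delivers ferritin to lysosomes, where its iron is released. Its values were 2388.5, 2855.7 and 3509.3 in astrocyte sEVs, against 7630.4, 8192.9 and 7392.3 in astrocytes, which did not overlap. They were 2072.4, 4229.4 and 5277.1 in microglia sEVs against 4446.1, 4273.5 and 4458.4 in microglia, and 3833.0, 1870.7 and 2230.1 in neuron sEVs against 4534.3, 4622.0 and 3647.4 in neurons, both overlapping. The Ncoa4 differences were -1.42, -0.29 and -0.75 (log2, each ± 0.31), against 5.86, 1.51 and 5.34 for Ftl1.

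Hmox1, which frees iron from heme, was the member whose sEV libraries lay all above the cells in one type and all below them in the others. Astrocyte sEVs had 634.6, 786.6 and 1361.2 normalized counts, against 1848.9, 1632.3 and 2429.0 in astrocytes. Microglia sEVs had 8819.4, 9262.7 and 9167.0, against 8017.8, 5933.1 and 6731.7 in microglia, and neuron sEVs had 638.2, 811.3 and 1099.7, against 1348.8, 1641.3 and 1109.2 in neurons. The sEV libraries lay under the cells in astrocytes and neurons and above them in microglia, with differences of -1.14, 0.41 and -0.70 (log2, each ± 0.30). In a single type, groups without overlap were common among all genes tested: 15.3, 8.45 and 22.7% in astrocytes, microglia and neurons with sEVs higher, and 27.2, 24.9 and 34.2% with sEVs lower.

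**Figure D3:**
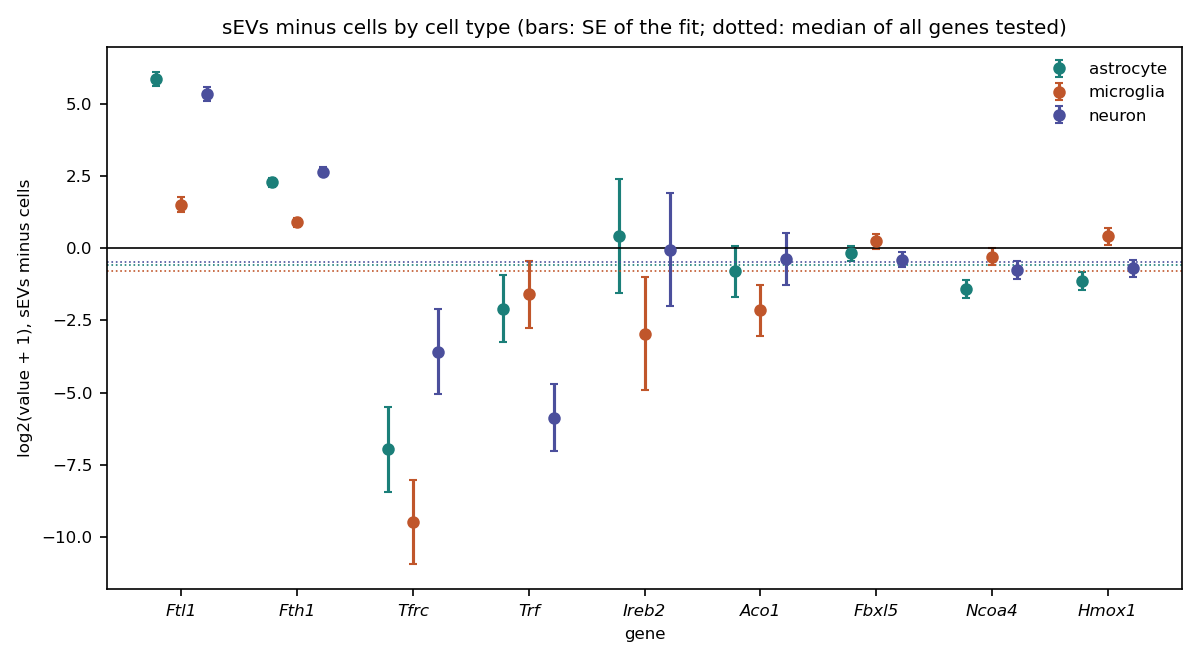
Difference of sEVs minus cells in log2(normalized count + 1) for the 9 genes in astrocytes, microglia and neurons. Points are differences of group means of 3 libraries each, bars are the SE of the fit over 18 libraries, and dotted lines are the medians of all genes tested. Ftl1 and Fth1 lie above 0 in each type, nearest to it in microglia, and Tfrc and Trf below it.

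Whether the sEV-minus-cell difference itself varied with the cell type was tested by limma, with Benjamini-Hochberg adjustment over all genes. This test is built from the differences by type that were known when the set was proposed. Its p-values for the members are therefore a description. Ftl1 differed between astrocytes and microglia by 4.35 ± 0.35 (log2, adjusted p = 1.05e-06) and between microglia and neurons by -3.83 ± 0.35 (adjusted p = 2.04e-06), with no difference called between astrocytes and neurons (0.52 ± 0.35, adjusted p = 0.549). Fth1 followed the same order, by 1.38 ± 0.23 (adjusted p = 0.000698) and -1.75 ± 0.23 (adjusted p = 5.74e-05), and by -0.37 ± 0.23 between astrocytes and neurons (adjusted p = 0.495). For Hmox1 astrocytes and microglia differed by -1.55 ± 0.42 (adjusted p = 0.0239), a call lost without astrocytes replicate 3 or microglia replicate 2 or 3 (adjusted p = 0.0538 to 0.0664) after quantile normalization (0.0552) and with the replicate block (0.0540; 0.00415 to 0.0664 over all 27 alternatives). In all, 3 of 9 members were called for astrocytes against microglia (13.3% of all genes tested), 2 for microglia against neurons (20.7%) and none for astrocytes against neurons (5.09%), where 1 member, Trf, had an unadjusted p under 0.05. The F test over the 3 types called Ftl1, Fth1 and Hmox1 (21.6% of all genes). The remaining 6 members were not called by it, Tfrc with an adjusted p of 0.123 and Trf with 0.120. Tfrc differed between microglia and neurons by -5.90 ± 2.07 (adjusted p = 0.0564), which did not pass as reported but did in 5 of 27 alternatives. At the same -5.90 it passed without astrocyte sEV replicate 1 or 3, which are not part of this pair (adjusted p = 0.00361 and 0.0358). It also passed in a fit of only the libraries compared (adjusted p = 0.0109). Without neuron sEV replicate 2 Trf was called for astrocytes against neurons (5.22, adjusted p = 0.0392), and without astrocyte sEV replicate 3 the members called for microglia against neurons numbered 4.

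Among cells, microglia had the most ferritin mRNA. A fit of the 9 cell libraries called 8 of 9 members for astrocytes against microglia (64.4% of all genes), 5 for astrocytes against neurons (32.5%) and 6 for microglia against neurons (71.7%), so the counts lie near or above a high background. Ftl1 averaged 121000 ± 26600 in astrocytes and 862000 ± 75000 in microglia (SD, n = 3 each), a difference of -2.85 ± 0.16 (log2, adjusted p = 1.09e-06), and microglia exceeded neurons (167000 ± 20800) by 2.37 ± 0.16 (adjusted p = 2.32e-06). Fth1 differed by -3.21 ± 0.17 between astrocytes and microglia (adjusted p = 8.63e-07) and by 3.05 ± 0.17 between microglia and neurons (adjusted p = 8.44e-07). The size of these steps moved over the 27 alternatives, with no call lost. For astrocytes minus microglia Ftl1 ran from -3.02 to -1.65 and Fth1 from -3.42 to -1.73. For microglia minus neurons Ftl1 ran from 0.83 to 2.45 and Fth1 from 1.47 to 3.11. Astrocytes and neurons were close, with Ftl1 at -0.48 ± 0.16 (adjusted p = 0.0498) and Fth1 at -0.16 ± 0.17 (adjusted p = 0.537). The Ftl1 call was lost in 13 of 27 alternatives. Among them were leaving out astrocytes replicate 1 or 2, any 1 microglia replicate, or neurons replicate 2 or 3 (adjusted p = 0.0656 to 0.154). The others were a pseudocount of 0.1, either change of the filter, equal totals with and without ferritin, and only the libraries compared (adjusted p = 0.0531 to 0.117). Fth1 was called without astrocytes replicate 3 (-0.37, adjusted p = 0.0198). The 5 members called for this pair became 3 without astrocytes replicate 1 or 2 or neurons replicate 2 or 3. Trf showed the widest steps, -5.39 ± 0.34 for astrocytes minus microglia (adjusted p = 2.13e-06), 6.92 ± 0.34 for microglia minus neurons (adjusted p = 3.77e-07) and 1.53 ± 0.34 for astrocytes minus neurons (adjusted p = 0.00876). Hmox1 was lower in astrocytes than in microglia, at -1.82 ± 0.21 (adjusted p = 7.51e-05), and higher in microglia than in neurons, at 2.34 ± 0.21 (adjusted p = 1.22e-05).

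The other members had different orders in cells. Tfrc was highest in neurons, at -1.11 ± 0.28 for astrocytes minus neurons (adjusted p = 0.0166, and 0.0537 to 0.0597 without astrocytes replicate 1 or 2 or neurons replicate 2 or 3) and -1.66 ± 0.28 for microglia minus neurons (adjusted p = 0.000719). Ireb2 was lowest in microglia, at 0.87 ± 0.15 for astrocytes minus microglia (adjusted p = 0.000858) and -0.86 ± 0.15 for microglia minus neurons (adjusted p = 0.000732). Aco1 and Ncoa4 were highest in astrocytes: Aco1 by 0.78 ± 0.19 over microglia (adjusted p = 0.0065) and 1.14 ± 0.19 over neurons (adjusted p = 0.00217), Ncoa4 by 0.82 ± 0.11 over microglia (adjusted p = 0.00028) and 0.87 ± 0.11 over neurons (adjusted p = 0.000592). Fbxl5 was lower in astrocytes than in microglia, at -0.59 ± 0.15 (adjusted p = 0.00787), but with each library set to the same total it was 0.18. Under that scaling Ncoa4, at 0.05 ± 0.11 for microglia minus neurons, became -0.62 and was called (adjusted p = 0.00349, the lowest of its 27 alternatives, which ran up to 0.974). Tfrc, at 0.55 ± 0.28 for astrocytes minus microglia (adjusted p = 0.118), became 1.32 there and was called (adjusted p = 0.000972). For microglia minus neurons, not called as reported, Aco1 (0.36 ± 0.19) ran from -0.31 to 0.63 over the alternatives. Fbxl5 (0.24 ± 0.15) ran from -0.43 to 0.35 for that pair.

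Among sEVs the ferritin chains parted company. In a fit of the 9 sEV libraries, Ftl1 was higher in astrocyte sEVs (7430000 ± 3590000) than in microglia sEVs (2460000 ± 301000; SD, n = 3 each), by 1.5 ± 0.30 (log2, adjusted p = 0.00469), and lower in microglia sEVs than in neuron sEVs (6810000 ± 1320000), at -1.46 ± 0.30 (adjusted p = 0.00377). Fth1 was instead lower in astrocyte sEVs than in microglia sEVs, at -1.83 ± 0.14 (adjusted p = 2.25e-05), and higher in microglia sEVs than in neuron sEVs, at 1.30 ± 0.14 (adjusted p = 0.000101). Thus the light chain was lowest and the heavy chain highest in microglia sEVs. Quantile normalization gives the most abundant gene of each library the same value, so the Ftl1 steps between sEVs were 0 there by construction. Trf and Hmox1 were highest in microglia sEVs, with Trf at -5.88 ± 1.53 for astrocyte minus microglia sEVs (adjusted p = 0.0171, 0.0510 without astrocyte sEV replicate 3 and 0.0806 with a pseudocount of 0.1) and 11.19 ± 1.53 for microglia minus neuron sEVs (adjusted p = 0.000421), and Hmox1 at -3.37 ± 0.36 (adjusted p = 0.000138) and 3.45 ± 0.36 (adjusted p = 8.31e-05). Tfrc was lower in microglia sEVs than in neuron sEVs (adjusted p = 0.0124). Ireb2, Aco1 and Ncoa4 were not called in any pair, and Fbxl5 was called at -0.99 ± 0.33 for astrocyte minus microglia sEVs (adjusted p = 0.0445) and 0.87 ± 0.33 for microglia minus neuron sEVs (adjusted p = 0.0497). These Fbxl5 calls were lost in 13 and 12 of 27 alternatives, among them leaving out astrocyte sEV replicate 2, microglia sEV replicate 2 or 3 or any 1 neuron sEV replicate for both, astrocyte sEV replicate 1 for the first pair and astrocyte sEV replicate 3 for the second (adjusted p = 0.0555 to 0.155). In total 5 members were called for astrocyte against microglia sEVs (39.5% of all genes), 6 for microglia against neuron sEVs (58.9%) and 1, Fth1, for astrocyte against neuron sEVs (14.9%; -0.52 ± 0.14, adjusted p = 0.0417). That call was lost without astrocyte sEV replicate 1 or 3, or any 1 microglia or neuron sEV replicate (adjusted p = 0.0541 to 0.19).

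Levels of different genes were set side by side per kilobase of transcript. This takes reads to rise with transcript length, which was not tested for this cDNA primed at poly(A) tails. On that scale Ftl1 led the members in each group, with a mean of 7670000 in astrocyte sEVs against 125000 in astrocytes, 2540000 in microglia sEVs against 890000 in microglia, and 7040000 in neuron sEVs against 172000 in neurons. Fth1 was next in each group, from 58600 in astrocytes to 988000 in microglia sEVs. Of the other members Trf came highest in microglia sEVs and in microglia (15300 and 45800 per kilobase), and Ncoa4 in astrocyte sEVs and in astrocytes (873 and 2310). In neuron sEVs Fbxl5 (862) and Ncoa4 (791) lay side by side, and in neurons Ncoa4, Tfrc and Fbxl5 lay between 1130 and 1280.

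Transcript length moves with the sEV-minus-cell difference over all genes, and its part in the member values was not tested. Genes with a transcript of up to 1000 bases had a median mean difference of 0.21 (log2, 1105 genes), against -0.68 above 1000 and up to 2000 bases, -1.18 above 2000 and up to 4000 bases and -0.89 above 4000 bases. Ftl1 (968 bases) and Fth1 (929 bases) are short, and their mean differences, 4.24 ± 0.14 and 1.94 ± 0.09, stood at percentiles 99.8 and 96.0 of that shortest class. Within the class, Fth1 in microglia was at percentile 73.6. Tfrc, at -6.68 ± 0.84, was at percentile 0.401 of the class above 4000 bases, where Ireb2, the longest member with 5770 bases, was at percentile 50.6.

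The 5 genes whose log2 profiles over the 18 libraries lay nearest to Ftl1, by root mean square difference after centring, were Chd9 (0.600), Arhgap11a (0.874), Gskip (0.920), Trim56 (0.954) and Atxn1l (1.08), of 15192 genes with a proper name. Those nearest to Fth1 were Ppp4r2 (0.409), Chmp4b (0.471), Spred1 (0.510), Aida (0.533) and Nsd3 (0.536). The ferritin chains were 1.57 apart. Among all 19612 genes tested, with predicted genes and pseudogenes counted, Fth1 was only the 186th nearest to Ftl1. Neither set of 5 holds another of the 9 genes.

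A wider list of 90 iron genes in 6 groups, of which 88 could be tested, shows where the members stand in their pathway. For the mean of the 3 cell types limma called 24 of the 88 higher in sEVs (12% of all genes tested) and 28 lower (37.1%). The list was drawn up with earlier results of these data known, and its counts are a description. In astrocytes 15 were higher and 15 lower (8 and 18.6% of all genes), in microglia 13 and 17 (5.08 and 21.2%), and in neurons 21 and 15 (11.1 and 18.9%). Without 1 microglia replicate the microglia count of higher genes was 8 (replicate 1) or 6 (replicate 2 or 3), and the neuron count of lower genes was 8 without neurons replicate 1 and 9 without replicate 3. The median of the list was -0.45, against -0.93 for all genes. The shares of all genes given here are also the background for the counts of each group below.

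Genes of iron uptake, export and reduction were lower in sEVs wherever they were called, as Tfrc was. Of 19 tested, 14 were called lower and none higher for the mean of the types (13 to 15 lower and 0 higher at equal totals with and without ferritin, 11 and 1 after quantile normalization). At an unadjusted limma p under 0.05 they were 15 lower and 0 higher. Steap3, the endosomal reductase that works beside the transferrin receptor, averaged 0, 0 and 18 in astrocyte, microglia and neuron sEVs, against 334, 400 and 241 in the cells (adjusted p = 1.67e-07). Heph, an iron oxidase of the cell surface, was listed at 0 in all sEV libraries, against means of 377, 46.0 and 255 in astrocytes, microglia and neurons (adjusted p = 2.24e-06). Lcn2, a secreted protein that binds iron carriers of bacteria, was likewise at 0 in all sEV libraries, against 9.16, 306 and 40.8 (adjusted p = 1.65e-06). Lrp1, a large endocytic receptor, fell by 3.91 (log2, SE 0.38, adjusted p = 9.94e-07), with means of 1010, 48.4 and 1270 in sEVs against 4620, 4560 and 6350 in cells. The exporter Slc40a1, whose 5′ UTR also met the hairpin search, was not called (0.64 ± 0.94, adjusted p = 0.595).

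Among cytosolic chaperones and ferritin turnover genes, 4 of 8 tested were higher and 3 lower, in each scaling tried. Pcbp2, one of the chaperones known to hand iron to ferritin, rose by 1.22 ± 0.16 (log2, adjusted p = 2.35e-05). Glrx3 and Bola2, which act together in cytosolic iron-sulfur handling, rose by 1.05 ± 0.09 (adjusted p = 1.56e-07) and 1.5 ± 0.14 (adjusted p = 6.61e-07). Tax1bp1, an autophagy receptor linked to ferritin turnover, fell by 0.59 (SE 0.07, adjusted p = 8.86e-06); its means were 10200, 20400 and 3360 in astrocyte, microglia and neuron sEVs, against 13800, 17200 and 10000 in the cells, so microglia went the other way without a call.

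Genes of mitochondrial iron and iron-sulfur cluster assembly were called higher in 11 of 27 and lower in 4 (10 to 14 higher and 3 to 4 lower over the scalings). Glrx5, a mitochondrial glutaredoxin of this pathway, rose by 3.74 ± 0.44 (log2, adjusted p = 6.16e-06), with means of 2070, 1550 and 7850 in astrocyte, microglia and neuron sEVs against 222, 85.8 and 537 in the cells. The scaffold Iscu rose by 1.14 ± 0.11 (adjusted p = 1.11e-06), Bola3 by 1.92 ± 0.20 (adjusted p = 2.36e-06) and Ciao2a, of the cytosolic assembly complex, by 0.93 ± 0.09 (adjusted p = 6.97e-07). All 4 were called in each of the 3 cell types, though Bola3 in microglia (1.31, adjusted p = 0.0128) was not without microglia replicate 2 or 3 (1.19 and 1.14, adjusted p = 0.0536 and 0.0577).

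**Figure D4:**
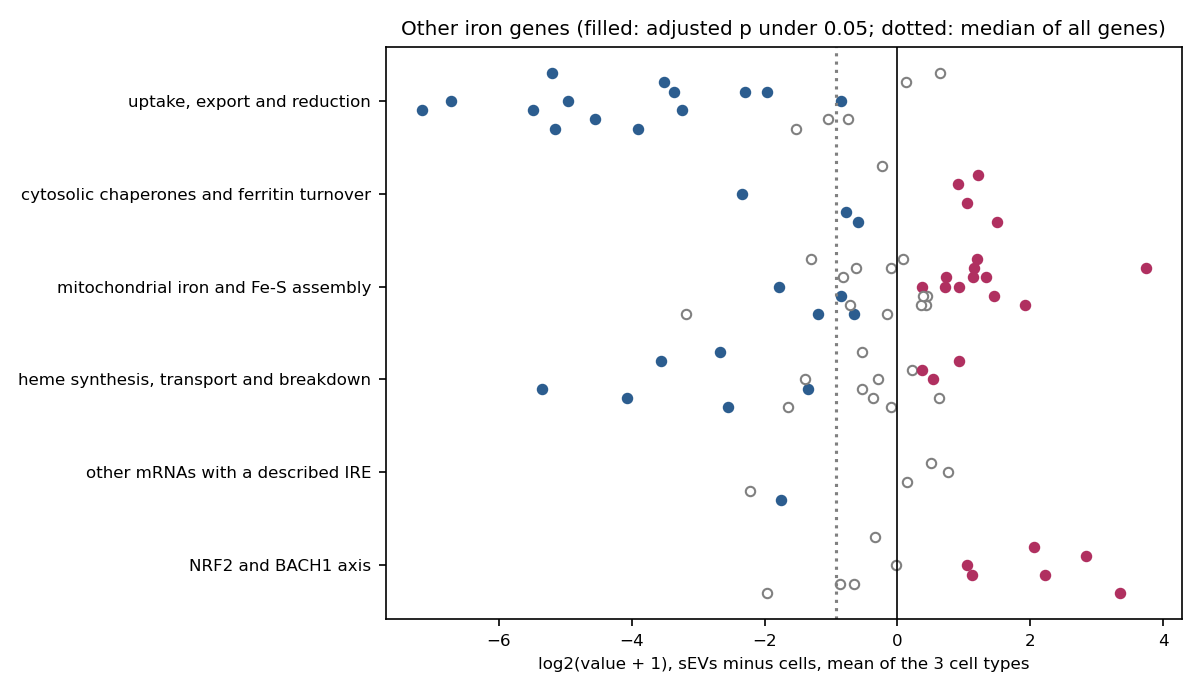
Mean difference of sEVs minus cells over the 3 cell types, in log2(normalized count + 1), for 88 other iron genes in 6 groups. Filled points passed an adjusted p of 0.05 in limma (24 higher, 28 lower), and the dotted line is the median of all genes tested (-0.93). Uptake, export and reduction genes lie mostly to the left, and called genes of the NRF2 and BACH1 axis to the right.

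Of 18 genes of heme synthesis, transport and breakdown, 3 were higher and 6 lower. The heme exporter Flvcr1 fell by 4.07 (log2, SE 0.29, adjusted p = 4.33e-08), its relative Flvcr2 stood at -5.35 ± 0.88 (adjusted p = 0.000161), and the heme-binding membrane protein Pgrmc1 at -3.56 ± 0.25 (adjusted p = 3.83e-08). Blvrb, a biliverdin reductase, which acts after heme oxygenase, rose by 0.92 ± 0.18 (adjusted p = 0.000765).

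Other mRNAs described to carry a hairpin for the iron regulatory proteins were also examined. Epas1, Cdc42bpa and Cdc14a were not called by limma for the mean of the types as reported. Epas1 was at 0.76 ± 0.73, Cdc42bpa at 0.14 ± 0.19 and Cdc14a at -2.22 ± 1.21, with adjusted p of 0.409, 0.581 and 0.143. Without microglia sEV replicate 1 the mean of Epas1, which encodes the hypoxia factor HIF-2α, was 1.47 and called (adjusted p = 0.00384), as it was after quantile normalization (2.03, adjusted p = 0.00918) and with a pseudocount of 10 (1.15, adjusted p = 0.0464). By type Epas1 was higher in neuron sEVs (3.92 ± 1.27, adjusted p = 0.0296) and lower in microglia sEVs (-3.70 ± 1.27, adjusted p = 0.0436). Both calls were lost with a pseudocount of 0.1 (adjusted p = 0.142 and 0.0655). The neuron call was also lost without neurons replicate 1 or 3 or neuron sEV replicate 2 or 3 (adjusted p = 0.0824 to 0.0879). In microglia the call was lost under most of the alternatives tried. Tfrc, with its hairpins in the 3′ UTR, stood lower in sEVs, as given above. Bola3, whose 3′ UTR also met the hairpin search, stood higher (1.92 ± 0.20, limma adjusted p = 2.36e-06). The part of such hairpins in these values was not tested.

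The axis of NRF2 and its opponent BACH1, which govern transcription of the ferritin genes and of Hmox1, had 6 of 11 genes higher and none lower for the mean of the types (6 and 2 at equal totals, and 6 and 2 at an unadjusted limma p under 0.05). For that mean 12% of all genes tested were higher and 37.1% lower. By type, 5 were higher in astrocytes and 7 in neurons (8 and 11.1% of all genes). In microglia limma called none higher and 2, Mafg and Keap1, lower (5.08 and 21.2% of all genes, and 0 and 4 of the axis at an unadjusted p under 0.05). Bach1, the heme-sensing repressor, averaged 7820 in astrocyte sEVs against 218 in astrocytes, 887 in microglia sEVs against 1720 in microglia, and 7900 in neuron sEVs against 120 in neurons, a mean difference of 3.35 ± 0.34 (log2, adjusted p = 1.26e-06). Mafg, a partner of both factors, averaged 48400 in astrocyte sEVs against 3310 in astrocytes, 693 in microglia sEVs against 2180 in microglia, and 86400 in neuron sEVs against 5130 in neurons (2.06 ± 0.18, adjusted p = 2.81e-07). Its sEV-minus-cell difference was larger in astrocytes than in microglia, by 5.58 ± 0.43 (adjusted p = 8.27e-07). Maff, another small partner, rose by 2.84 ± 0.29 (adjusted p = 1.51e-06) and Srxn1, a sulfiredoxin and target of NRF2, by 2.22 ± 0.23 (adjusted p = 1.66e-06). Hmox1, itself a target of this axis, had a mean difference of -0.48 ± 0.17.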

How the data were processed

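Primary mouse astrocyte, microglia and neuron cultures and their sEVs gave 18 libraries in 6 groups of 3. The authors deposited 1 table of normalized counts (used here as signal values). Salmon 1.8.0, GRCm39 and DESeq2 are named for this table, per the submitters' processing notes. Of the values below 100, 2.90 to 9.04% were whole multiples of a library's commonest value, within 0.001, so reads could not be recovered and no count model was run; depths are estimates and no counting intervals are given. Deposited group means were not used. The library kit does not mark strand.

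Tests were run in R 4.3.3 with limma 3.58.1 (trend) on log2(normalized count + 1), for genes at 10 or more in at least 3 libraries, with Benjamini-Hochberg adjustment over all genes of a contrast and a threshold of 0.05. All 18 libraries entered sEVs against cells and its differences between types (19612 genes); 9 libraries each entered the pairs of cells (18410 genes) and of sEVs (15514 genes). The tests were checked on simulated data. The ratio of ferritin chains used exact permutation tests. Alternatives were the pseudocount, the filter, scaling (equal totals with and without ferritin, and quantile normalization, restricted to the genes tested after a version over all rows had been seen), a replicate block, fits of only the libraries compared, and leaving out each library. Members and lists were chosen with earlier results of these data known. All 9 members are named, and from each wider group up to 4 genes with the smallest p for the mean of the types among genes averaging 50 or more on the higher side; Slc40a1 and Keap1 were added after their values were seen. A gene that the rule would name is not reported here. Older symbols of 4 wider genes were matched by identifier or synonym.

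GENCODE vM21 (GRCm38), another build than the table's, gave transcript lengths, hairpins and shared sequence (blastn 2.17.0), and no genome coordinates are given.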

Additional observations from a re-analysis of the deposited data

Results flagged for a closer look

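Over 3 pairs of cell types, the sEV-minus-cell difference was compared for the 9 members and 4 genes of the NRF2 and BACH1 axis. By limma with Benjamini-Hochberg adjustment over all genes, 13 of these results were called. Of all genes tested, 13.3% were called for astrocytes against microglia, 5.09% for astrocytes against neurons and 20.7% for microglia against neurons. These genes were chosen with sEVs against cells known, so the p-values are a description. For Ftl1 the difference was larger in astrocytes (5.86) than in microglia (1.51), by 4.35 ± 0.35 (log2, adjusted p = 1.05e-06), and smaller in microglia than in neurons (5.34), at -3.83 ± 0.35 (adjusted p = 2.04e-06). Over the 27 alternatives these Ftl1 values ran from 1.83 to 4.59 and from -3.97 to -0.96, with no call lost. Fth1 gave 1.38 ± 0.23 (adjusted p = 0.000698) and -1.75 ± 0.23 (adjusted p = 5.74e-05) for the same pairs. Every library of each sEV group was above the cells of its type for both chains, so the size and not the sign varied. Hmox1 gave -1.55 ± 0.42 for astrocytes (-1.14) minus microglia (0.41), adjusted p = 0.0239.

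Of the wider iron genes only 4 of the NRF2 and BACH1 axis were compared in this way. They differed in the same pairs, astrocytes minus microglia and microglia minus neurons. Bach1 gave 6.54 ± 0.82 (adjusted p = 5.84e-05) and -7.45 ± 0.82 (adjusted p = 1.19e-05). Mafg gave 5.58 ± 0.43 (adjusted p = 8.27e-07) and -5.83 ± 0.43 (adjusted p = 4.03e-07), from 3.83 in astrocytes, -1.74 in microglia and 4.08 in neurons. Maff gave 4.8 ± 0.71 (adjusted p = 0.000255) and -3.66 ± 0.71 (adjusted p = 0.00176). Srxn1 gave 3.18 ± 0.56 (adjusted p = 0.00118) and -1.99 ± 0.56 (adjusted p = 0.0199). Its microglia minus neuron call was lost at equal totals with and without ferritin (-1.37 and -1.51, adjusted p = 0.0860 and 0.0609), and without microglia replicate 2 or neuron sEV replicate 2 or 3 (adjusted p = 0.0511 to 0.0523). No cause of these differences was tested.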

How the results depend on the processing

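Of 1031 comparisons of 40 summary results with an alternative, 980 stayed the same, as did 5596 of 5825 for single genes. A count was taken as the same if its size was close, and a test if its call held. A difference was taken as the same if it moved within the spread of the replicates. No summary result reversed, but a count cannot reverse and the ratio tests cannot pass 0.05. Among the summary results, only the Ftl1 and Fth1 differences could have reversed. Equal totals gave 20 other iron genes higher in microglia (13 as reported), 5 members called for the difference between microglia and neurons (2 as reported), and differences of 1.82 (Ftl1, microglia), 1.22 (Fth1, microglia) and 2.34 (Fth1, neurons). Equal totals without ferritin gave 1582 of all genes higher in microglia (996), 20 other iron genes, 4 members, and 1.89 and 1.28 for Ftl1 and Fth1 in microglia. At these scalings Fbxl5 reversed in cells (astrocytes minus microglia, 0.18 and 0.16 against -0.59), as did Ncoa4 (microglia minus neurons, -0.62 and -0.59 against 0.05). Both scalings multiply all values of a library by 1 factor. They shifted the median of all genes in cells by 0.71 and 0.68 for astrocytes minus microglia, and by -0.64 and -0.61 for microglia minus neurons.

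Quantile normalization, which centres all genes, gave 2624, 2957 and 3615 genes higher in astrocytes, microglia and neurons (1569, 996 and 2185), 2402 lower in microglia (4151), and 4711 higher and 4225 lower for the mean (2355 and 7283), a share of higher calls of 52.7% against 24.4%. It gave 11 other iron genes lower in microglia (17), Ftl1 differences of 4.14, 2.31, 3.27 and 3.24 (mean), and Fth1 differences of 1.52 in microglia and 2.29 in neurons. It called 3 members for astrocyte against microglia sEVs (5) and 2 for the difference between astrocytes and neurons (0), and Fth1 reversed to 0.09 for astrocyte minus neuron sEVs (-0.52).

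For astrocyte against neuron sEVs, members called were 0 with a pseudocount of 0.1, 2 with 10, and 0 with the replicate block (1 as reported). A pseudocount of 10 gave 4 members for the difference between microglia and neurons. Fits of only the libraries compared gave 2701 genes lower in microglia, 3748 higher and 5635 lower in neurons (3705), 25 other iron genes lower in neurons (15) and 4 members for the difference between microglia and neurons. Whether same-numbered sEV and cell libraries came from one culture is not given in the labels, and the fits as reported did not pair them. Such libraries deviated with correlations of -0.0396 to 0.0445, and 6 of 9 cell libraries correlated best with their own number.

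Leaving out 1 library gave 6 to 14 other iron genes higher in microglia, 8 to 19 lower in neurons, 3 to 6 members for astrocytes against neurons, 0 to 1 for their sEVs, 0 to 1 for the difference between astrocytes and neurons, and 2 to 4 for that between microglia and neurons. Tfrc passed for that difference without astrocyte sEV replicate 1 or 3 or microglia sEV replicate 3 (-7.33 to -5.90), and Trf for astrocyte minus neuron sEVs without neuron sEV replicate 1 (3.28) or 2 (6.75). Values at or near 0 in sEVs limit Tfrc, Trf, Ireb2 and Aco1, since 1 library then sets the SE.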
